A study of Sus scrofa with 16 samples.

Results

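Genes that mark where along the small intestine a piece of tissue comes from were followed in 16 arrays of preterm piglet gut. The 7 genes are GATA4, TM4SF5, FABP6, DAB2, TCN2, TOB1 and CTSV. They were taken as all probe sets annotated with these symbols, which are 7 of the 6765 genes with a probe set of their own and 11 of the 24123 probe sets on the array. Of these 11 probe sets 9 passed a filter on dim signals, at least 1 for each gene, along with 11529 others. The groups were distal tissue of antibiotics piglets (animals 85, 86, 87 and 95), distal tissue of control piglets (83, 88, 89 and 92), proximal tissue of antibiotics piglets (86, 87, 95 and 98) and proximal tissue of control piglets (83, 88, 89 and 92). Antibiotics piglets had received ampicillin, gentamycin and metronidazol by mouth and into muscle from birth, and control piglets saline. All were Landrace x Large white x Duroc crosses from 2 sows, delivered by caesarean section on gestation day 105. They were fed through a vein with small amounts by mouth at first, by stomach tube alone from day 3, and tissue was taken on day 5. The number in the sample names is read as the animal's, which gives 9 piglets, 7 of them with both segments. The arrays come from a study of 24 piglets, and how long or how far along the gut each piece was cut is not given in the sources used here.

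Along the small intestine the lining cells divide the work of absorption. Proximal enterocytes take up most sugars and fats, and in mice the zinc finger transcription factor GATA4 is present there, absent from the far end, and required to keep ileal genes off. Distal enterocytes recover bile acids and vitamin B12, and before weaning they also take up whole macromolecules by endocytosis into large lysosomes. FABP6 binds bile acids inside ileal enterocytes, TCN2 (transcobalamin) carries vitamin B12 in blood, DAB2 is a clathrin adaptor that brings receptors of the LDL receptor family into the cell, and CTSV is a lysosomal protease. TM4SF5 is a membrane protein of the L6 family, and TOB1 is an antiproliferative protein that binds the CCR4-NOT deadenylase.

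All values are GCRMA values on a log2 scale, on which log2 5 was the level of the filter, and n is 4 arrays a group. Markers of intestinal epithelium, 9 of 14 measured, had a mean between 12.48 and 13.41 on all 16 arrays. The 5′ minus 3′ difference of control probe sets, a measure of RNA integrity, was -4.72 to -3.00 in antibiotics distal, -3.96 to -3.20 in control distal, -3.76 to -2.67 in antibiotics proximal and -4.30 to -2.38 in control proximal tissue. In whole tissue, fewer cells of a type and less RNA per cell cannot be told apart. The labels name no processing batches, and with 4 arrays a group the precision of each comparison is limited by their number. The proximal array of control piglet 88 stood apart for TM4SF5 and FABP6, so results that rest on it are given without it as well.

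The 7 genes behaved in different ways. GATA4 and TM4SF5 were lower in distal tissue, and FABP6 was higher in distal tissue. The other 4 did not pass the test for a segment difference in the fit of all 16 arrays without array weights. In antibiotics piglets 3 of the 7 genes passed (GATA4, TM4SF5 and FABP6; limma adjusted p under 0.05), where 5.25% of all tested probe sets did. In control piglets 2 of the 7 passed (GATA4 and TM4SF5), where 0.364% of all tested probe sets did. The 7 genes were chosen with earlier results of these data known, so these shares cannot be read as an enrichment. The median difference over all tested probe sets was 0.05 in antibiotics and -0.01 in control piglets. For TCN2, TOB1 and CTSV no segment difference passed in either treatment. For DAB2 in antibiotics piglets it depended on which arrays entered the fit and on whether the arrays were weighted.

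**Figure D1:**
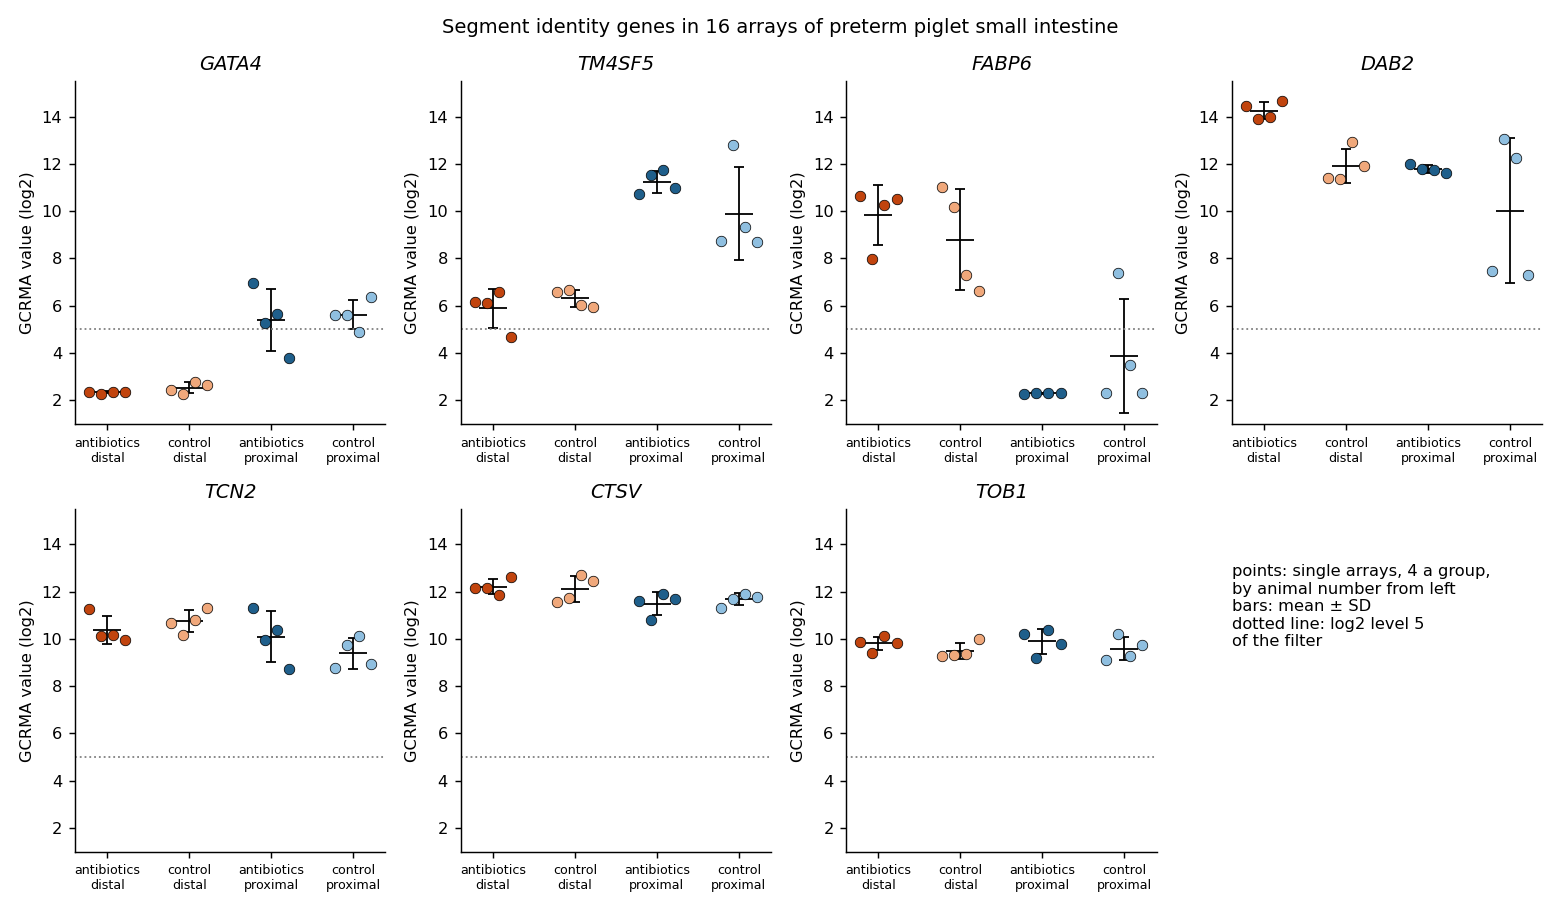
GCRMA values (log2, y axis) of the 7 genes on each of the 16 arrays, by group along the x axis, with bars for the mean ± SD of 4 arrays. GATA4 and TM4SF5 lie lower and FABP6 mostly higher in the distal groups, DAB2 is highest in distal tissue of antibiotics piglets, and TCN2, CTSV and TOB1 lie between 8.73 and 12.69 in all groups.

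GATA4 was at the bottom of the scale in every distal array and above it in every proximal one. In distal tissue it read 2.38, 2.28, 2.37 and 2.37 in antibiotics piglets 85, 86, 87 and 95, and 2.42, 2.29, 2.80 and 2.63 in control piglets 83, 88, 89 and 92. In proximal tissue it read 6.97, 5.26, 5.63 and 3.79 in antibiotics piglets 86, 87, 95 and 98, and 5.60, 5.63, 4.89 and 6.39 in control piglets 83, 88, 89 and 92. The segments did not overlap in either treatment, and the lowest proximal array, antibiotics piglet 98, was still above the highest distal one. Of all tested probe sets, 12.4% were without overlap in antibiotics and 3.93% in control piglets. The group means were 2.35 ± 0.04 in distal and 5.41 ± 1.31 in proximal tissue of antibiotics piglets (SD), and 2.53 ± 0.22 in distal and 5.62 ± 0.61 in proximal tissue of control piglets. The difference was -3.06 (SE 0.48) in antibiotics piglets and -3.09 (SE 0.48) in control piglets, with limma adjusted p of 0.00137 and 0.00434. As every distal array lay below the filter level, the fall is given as at least 1.33-fold in antibiotics and at least 1.54-fold in control piglets. GATA4 passed the filter through its proximal arrays alone, with 3 of 4 above log2 5 in each treatment. Both calls held with each array left out in turn and in the other 10 settings in which GATA4 could be tested. As the same floor values and the same filter enter these fits, they are no independent support for the calls. A further GATA4 probe set read 2.14 on all 16 arrays and gave no information.

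TM4SF5 was likewise lower in distal tissue, but most of its distal values lay above the filter level. It read 6.18, 6.10, 6.58 and 4.70 in distal tissue of antibiotics piglets 85, 86, 87 and 95, and 6.58, 6.68, 6.03 and 5.96 in that of control piglets 83, 88, 89 and 92. Its proximal values were 10.71, 11.51, 11.75 and 10.99 in antibiotics piglets 86, 87, 95 and 98, and 8.74, 12.80, 9.34 and 8.68 in control piglets 83, 88, 89 and 92. No distal array reached any proximal one, where 12.4% of tested probe sets were without overlap in antibiotics and 3.93% in control piglets. Within the control proximal group piglet 88 stood 3.46 above the next array. The segment difference was -5.35 (SE 0.70, limma adjusted p = 0.000327), or 40.8-fold lower in distal tissue, in antibiotics piglets. It was -3.58 (SE 0.70, limma adjusted p = 0.0349) in control piglets. The control call was lost in 7 of the 16 fits with an array left out, at limma adjusted p of 0.0554 to 0.118. These left out control distal array 83 (0.0901), 88 (0.0554), 89 (0.104) or 92 (0.118), antibiotics distal array 85 (0.0562) or 86 (0.0565), or antibiotics proximal array 87 (0.0565). It was lost also with the animal as a fixed block (limma adjusted p = 0.0640), and the direction was the same each time. A dimmer TM4SF5 probe set read 3.40 to 3.66 in distal against 5.04, 11.59, 7.62 and 6.72 in proximal tissue of control piglets (83, 88, 89 and 92), so that piglet 88 was highest by it too. By it the fall was at least 27.8-fold in antibiotics piglets (limma adjusted p = 0.00034), and its difference of -4.15 in control piglets did not pass (limma adjusted p = 0.063).

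FABP6 was the distal counterpart and was bright in distal tissue, where its values spanned 2.67 in antibiotics and 4.38 in control piglets. It read 10.64, 7.97, 10.27 and 10.52 in distal tissue of antibiotics piglets 85, 86, 87 and 95, and 11.03, 10.17, 7.32 and 6.64 in that of control piglets 83, 88, 89 and 92. In proximal tissue it was at the floor in all antibiotics piglets, between 2.28 and 2.33, and it read 2.32, 7.40, 3.49 and 2.33 in control piglets 83, 88, 89 and 92. One proximal array, control piglet 88, thus carried as much FABP6 as the dimmer distal arrays of control piglets 89 and 92, and the control segments overlapped. In antibiotics piglets the difference was 7.54 (SE 1.08, limma adjusted p = 0.000731), a rise of at least 28.8-fold. In control piglets it was 4.90 (SE 1.08) and did not pass (limma adjusted p = 0.0696). Without the proximal array of control piglet 88, singled out by its high value, it was 6.08 (limma adjusted p = 0.00319). This was the only 1 of 16 fits with an array left out that passed. With the animal as a random block the difference was 4.90 (limma adjusted p = 0.0264). In each of the 7 piglets with both segments FABP6 was higher in the distal one, by 2.77 in control piglet 88 up to 8.71 in control piglet 83.

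**Figure D2:**
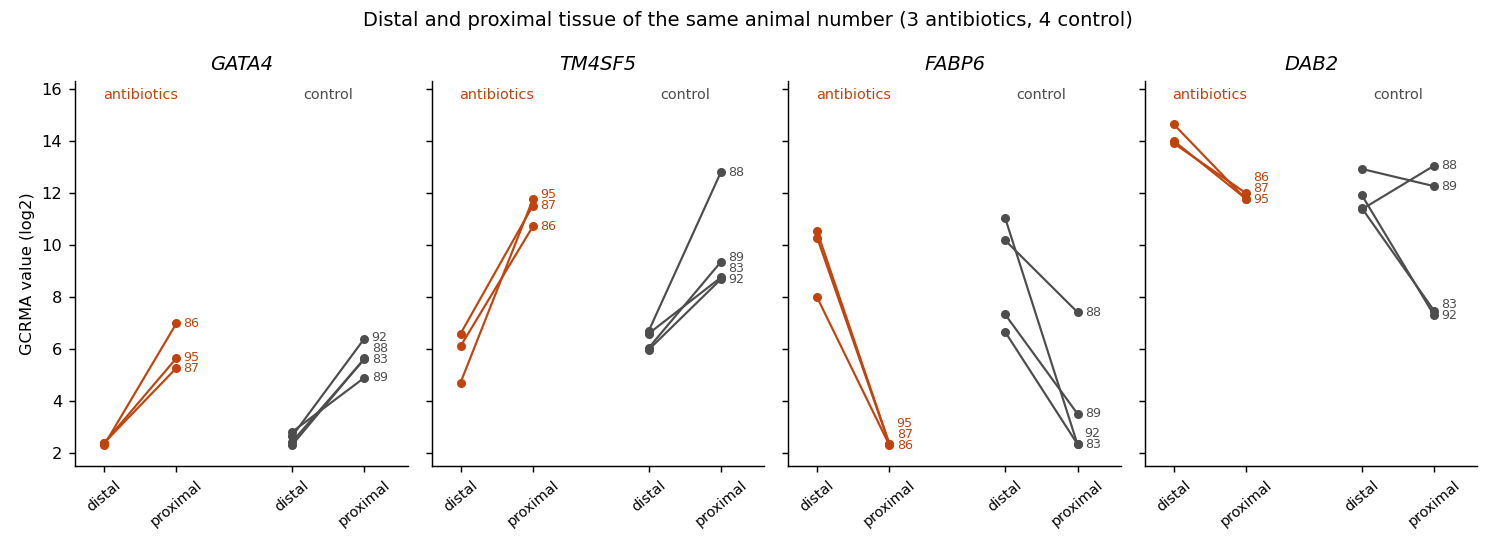
GCRMA values (log2, y axis) of 4 genes in the distal and proximal tissue of each of the 7 piglets that had both, joined by a line (3 antibiotics, 4 control piglets, numbered at the proximal end). The lines of GATA4 and TM4SF5 all run lower at the distal end and those of FABP6 all higher, while that of DAB2 is turned round in control piglet 88.

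DAB2, the endocytic adaptor, was brightest in the distal tissue of antibiotics piglets. There it read 14.44, 13.90, 14.00 and 14.64 in piglets 85, 86, 87 and 95, against 11.42, 11.36, 12.92 and 11.92 in distal tissue of control piglets 83, 88, 89 and 92. In proximal tissue it read 11.98, 11.77, 11.74 and 11.60 in antibiotics piglets 86, 87, 95 and 98, and 7.46, 13.04, 12.25 and 7.29 in control piglets 83, 88, 89 and 92. The antibiotics proximal arrays lay within 0.39 of each other, while the control proximal arrays fell into a bright pair (88 and 89) and a dim pair (83 and 92). The segment difference was 2.47 (SE 0.99, limma adjusted p = 0.201) in antibiotics piglets, whose segments did not overlap as in 12.4% of all tested probe sets, and 1.89 (SE 0.99, limma adjusted p = 0.721) in control piglets, whose segments overlapped. The difference in antibiotics piglets passed when the fit held only their 8 arrays (limma adjusted p = 0.000353) and with array weights (limma adjusted p = 0.0128). Without the proximal array of control piglet 88 the control difference was 2.90 (limma adjusted p = 0.168). It was higher in distal tissue in 6 of 7 piglets. Control piglet 88 was the exception, at 11.36 in distal and 13.04 in proximal tissue.

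Between treatments DAB2 in distal tissue was 2.34 higher with antibiotics than in controls (SE 0.99, limma adjusted p = 0.255), and the arrays of the groups did not overlap, as in 12.7% of tested probe sets. The comparison passed when the fit held only the 8 distal arrays (limma adjusted p = 0.0116) and with array weights (limma adjusted p = 0.0266), and in no fit with an array left out. Its other tested probe set gave 12.36, 12.07, 11.87 and 12.47 with antibiotics against 8.69, 10.22, 11.58 and 9.93 in controls, again without overlap, and a difference of 2.09 (limma adjusted p = 0.132). A further probe set, at the edge of detection, was not tested. DAB2 is also made by macrophages, whose marker list with neutrophils had 7 of 16 genes measured. The mean of the list was 4.89 to 5.62 in antibiotics distal against 7.59 to 8.50 in control distal tissue, and 4 of the 7 fell with antibiotics there, where 2.12% of all tested probe sets passed in either direction. One of them was CD163, a scavenger receptor of macrophages (-5.00, limma adjusted p = 0.0056). Its antibiotics distal mean, 4.03 ± 0.40 (SD), lay below the filter level, so the size of that fall is poorly determined. CD14, S100A8, S100A12 and ITGAM of that list were too dim to test, and the part of these cells in the DAB2 values was not tested.

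TCN2, the vitamin B12 carrier, did not overlap between the segments of control piglets, but the difference did not pass the test and was no larger than the range of the proximal arrays. It read 10.68, 10.17, 10.82 and 11.32 in distal tissue of control piglets 83, 88, 89 and 92, against 8.78, 9.72, 10.14 and 8.93 in their proximal tissue. The lowest distal array, piglet 88, was just above the highest proximal one, piglet 89, and 3.93% of all tested probe sets were likewise without overlap in that comparison. The difference was 1.36 (SE 0.48, limma adjusted p = 0.359), and each of the 4 control piglets had more TCN2 in its distal tissue. In antibiotics piglets the distal values of 11.25, 10.14, 10.15 and 9.96 (85, 86, 87 and 95) ran through the proximal ones of 11.32, 9.94, 10.36 and 8.73 (86, 87, 95 and 98). There the difference was 0.29 (SE 0.48, limma adjusted p = 0.838), with TCN2 higher in distal tissue in 1 of 3 piglets. The difference between the treatments' segment contrasts, -1.07 (SE 0.67), did not pass (limma adjusted p = 0.842).

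CTSV was bright in all arrays and leaned to the distal side by a small step. It read 12.15, 12.14, 11.86 and 12.63 in distal tissue of antibiotics piglets 85, 86, 87 and 95, against 11.62, 10.79, 11.88 and 11.66 in proximal tissue of antibiotics piglets 86, 87, 95 and 98. Control piglets 83, 88, 89 and 92 had 11.56, 11.72, 12.69 and 12.43 in distal tissue, against 11.32, 11.69, 11.91 and 11.78 in proximal tissue. The segments overlapped in both treatments, with differences of 0.71 (SE 0.30, limma adjusted p = 0.223) in antibiotics and 0.42 (SE 0.30, limma adjusted p = 0.848) in control piglets. Within animals CTSV was higher in the distal tissue of 7 of 7, by 0.02 in control piglet 88 up to 1.07 in antibiotics piglet 87. In the pig annotation used here, the gene of this probe set also carries the names of cathepsin L, so which of the closely related human proteases it corresponds to is not settled by the symbol.

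TOB1 carried no segment or treatment signal that could be told from the spread. Its values lay between 9.12 and 10.38 on all 16 arrays, with group means of 9.80 ± 0.29 in antibiotics distal, 9.48 ± 0.34 in control distal, 9.89 ± 0.52 in antibiotics proximal and 9.58 ± 0.49 in control proximal tissue (SD). The distal minus proximal difference was -0.08 (SE 0.30, limma adjusted p = 0.934) in antibiotics and -0.10 (SE 0.30, limma adjusted p = 0.989) in control piglets. It was higher in distal tissue in 1 of 3 antibiotics and 3 of 4 control piglets.

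Treatment did not change any of the 7 genes by the test. In distal tissue 0 of the 7 passed for antibiotics against control, where 2.12% of all tested probe sets did, and 1823 probe sets had an unadjusted p under 0.05. DAB2 was the sole member among those, with an unadjusted p of 0.0316. In proximal tissue 0 of the 7 passed, where 0.147% of tested probe sets did, with 1483 at an unadjusted p under 0.05 and no member by the probe set that represents it. The differences in distal tissue were -0.18 for GATA4, -0.42 for TM4SF5 and 1.06 for FABP6 (limma adjusted p = 0.901, 0.834 and 0.694). In proximal tissue they were -0.21, 1.35 and -1.58 (limma adjusted p = 0.899, 0.442 and 0.588).

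The segment contrasts of antibiotics and control piglets were compared directly as well, and 0 of the 7 genes passed, where 0.191% of tested probe sets did and 764 had an unadjusted p under 0.05. The fitted contrasts of GATA4 differed by 0.03 (SE 0.67, limma adjusted p = 0.996), but since its distal arrays are at the floor each contrast is a bound only, and the difference ran from -0.51 to 0.55 with an array left out. TM4SF5 differed by -1.77 (SE 0.99, limma adjusted p = 0.82) and FABP6 by 2.64 (SE 1.53, limma adjusted p = 0.821), in each case a wider contrast with antibiotics. Without the proximal array of control piglet 88, TM4SF5 passed both this comparison (-2.74, limma adjusted p = 0.0449) and antibiotics against control in proximal tissue (2.32, limma adjusted p = 0.00628). For each comparison this was 1 of 16 fits with an array left out. That array was singled out by its TM4SF5 and FABP6 values, so the 2 passes are no independent support for a treatment difference. FABP6 passed neither comparison with any array left out.

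How distal an array looked was put on a scale for each gene, with 0 at the mean of the proximal and 1 at the mean of the distal arrays of other animals. By GATA4 the antibiotics distal arrays lay at 1.02 to 1.06 and the control distal arrays at 0.87 to 1.06. By TM4SF5 they lay at 0.88 to 1.39 and at 0.84 to 1.03. All 8 distal arrays were therefore near the distal mean by both proximal markers. For GATA4 the distal values lie at the floor, so its positions near 1 have no order. The ends are means of the same segments, and the genes were chosen with earlier results of these data known. The positions are thus a description and no test of whether a distal array is intermediate. By FABP6 the distal arrays lay at 0.76 to 1.25 with antibiotics, a span like that by TM4SF5. In controls they were spread more, at 0.53 to 1.33, with control piglets 92 (0.53) and 89 (0.65) lowest and control piglet 83 (1.33) highest.

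**Figure D3:**
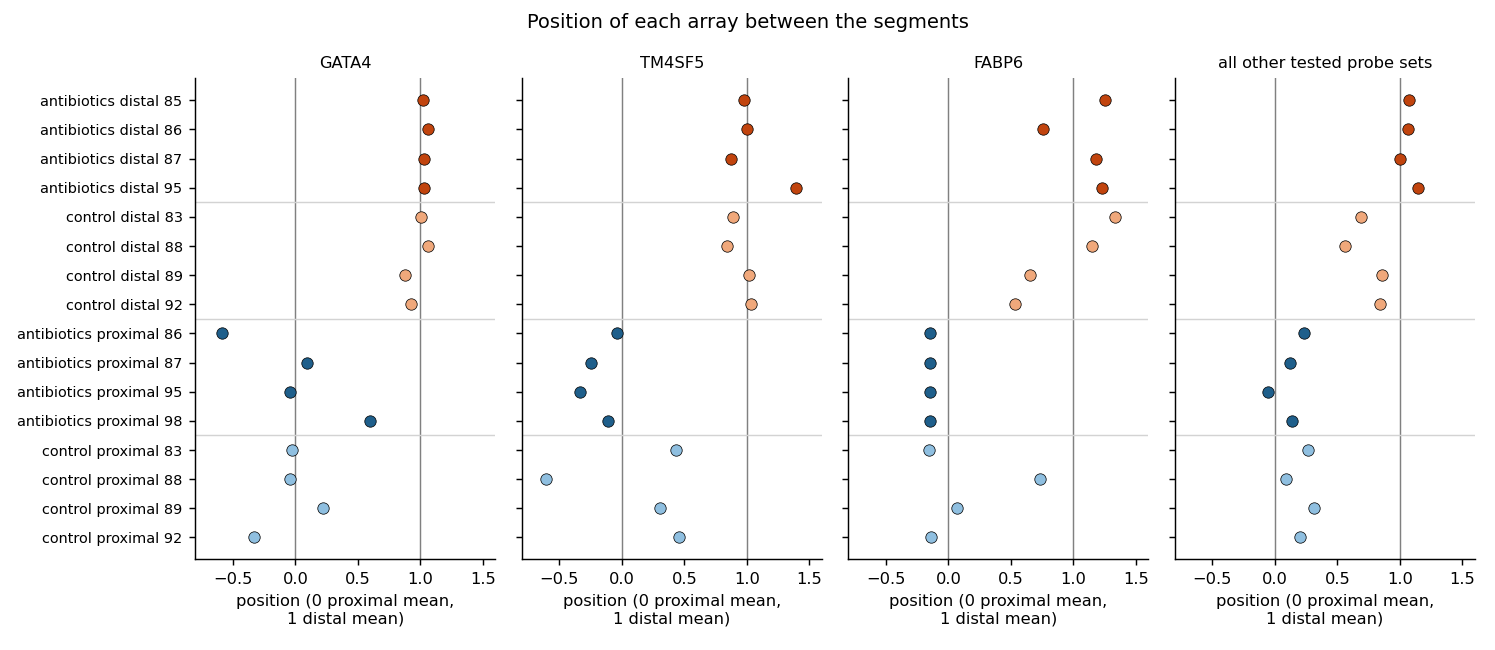
Position of each of the 16 arrays (rows, named by group and animal) between the proximal mean at 0 and the distal mean at 1 (x axis, no unit), by GATA4, by TM4SF5, by FABP6 and by 11529 other tested probe sets. The distal arrays lie near 1 by GATA4 and TM4SF5, while control distal arrays 83 and 88 lie at 0.69 and 0.56 by the rest of the array and at 1.33 and 1.14 by FABP6.

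The proximal arrays were spread more by GATA4, from -0.58 in antibiotics piglet 86 to 0.59 in antibiotics piglet 98. Antibiotics piglet 98, the most distal proximal array by GATA4, lay at -0.11 by TM4SF5 and at -0.15 by FABP6. Control piglet 88 lay at -0.60 by TM4SF5, beyond all others on the proximal side, and at 0.73 by FABP6, beyond the distal arrays of control piglets 89 and 92.

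The whole array gave a further answer for the distal controls. Over 11529 tested probe sets other than the members, the antibiotics distal arrays lay at 1.07, 1.06, 0.999 and 1.14 (piglets 85, 86, 87 and 95), against 0.69, 0.56, 0.86 and 0.84 for the control distal arrays (piglets 83, 88, 89 and 92). When the ends were taken from control piglets alone the order changed, with 0.85, 0.80, 0.69 and 1.03 for antibiotics and 0.81, 0.57, 0.82 and 1.09 for control piglets. Control piglet 88 was lowest of the 8 distal arrays under both choices. By the same measure all proximal arrays lay between -0.05 and 0.31 with the ends from all piglets.

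The markers did not order the control distal arrays alike. FABP6 was highest in control piglets 83 and 88 (11.03 and 10.17) and lower in 89 and 92 (7.32 and 6.64). CTSV was lower in 83 and 88 (11.56 and 11.72) than in 89 and 92 (12.69 and 12.43), and DAB2 likewise (11.42 and 11.36 against 12.92 and 11.92). TCN2 was lower there too (10.68 and 10.17 against 10.82 and 11.32). TM4SF5, by its brighter probe set, was higher (6.58 and 6.68 against 6.03 and 5.96), which is the proximal direction. Of these genes FABP6 alone was more distal in 83 and 88. NEU1, a lysosomal sialidase and a gene that rose in distal tissue of antibiotics piglets, read 7.63 and 7.31 in piglets 83 and 88 against 10.07 and 8.87 in 89 and 92. LEAP2, a peptide of liver and gut that blocks the ghrelin receptor, read 12.13 and 11.83 in control piglets 83 and 88, within its proximal range of 10.52 to 12.95, but 3.76 and 7.57 in 89 and 92. TMPRSS15 (enteropeptidase, which activates trypsinogen in the duodenum) read 6.18 and 6.70 in 83 and 88, and 2.82 and 3.79 in 89 and 92. So the distal tissue of control piglets 83 and 88 lay outside the proximal range by GATA4, TM4SF5 and FABP6 and inside it by LEAP2 and NEU1. Antibiotics distal arrays lay outside the proximal range by all of these, with LEAP2 at 4.36 to 6.18 and NEU1 at 10.66 to 10.92.

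**Figure D4:**
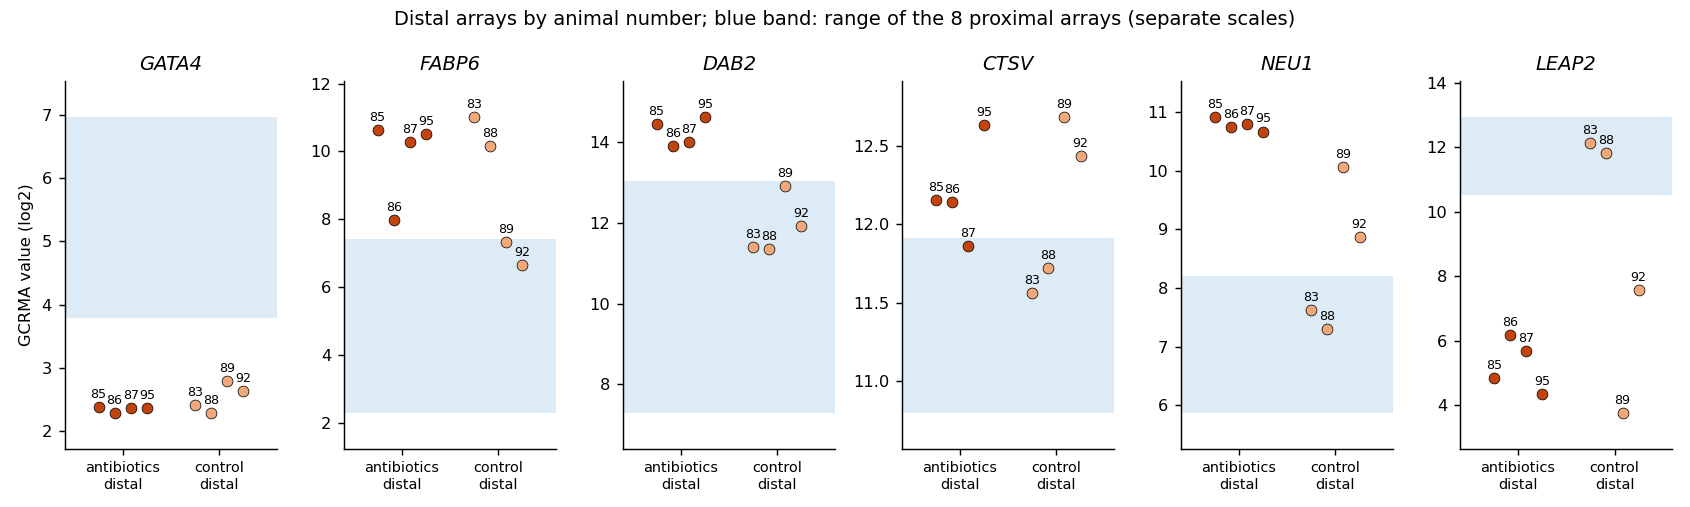
GCRMA values (log2, y axis, a scale of its own per gene) of the distal arrays, numbered by animal, for 4 of the genes and for NEU1 and LEAP2, with a blue band for the range of the 8 proximal arrays. GATA4 lies outside the band in all 8 arrays, whereas NEU1 and LEAP2 of control piglets 83 and 88 lie inside it and those of 89 and 92 outside.

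Among the control proximal arrays these genes disagreed within a single array. Control piglet 88 had the highest TM4SF5 of all arrays (12.80), which is the proximal extreme, and the highest proximal FABP6 (7.40), which is the distal direction. In this group TM4SF5, FABP6, DAB2 and TCN2 were all higher in piglets 88 and 89 than in 83 and 92, with TCN2 at 9.72 and 10.14 against 8.78 and 8.93. GATA4 did not follow, at 5.63 and 4.89 in 88 and 89 against 5.60 and 6.39 in 83 and 92. CTSV, at 11.69 and 11.91 against 11.32 and 11.78, and TOB1, at 10.19 and 9.27 against 9.12 and 9.75, did not split that way either. The mean of 20 genes of proximal enterocyte function was 11.93 and 11.28 in piglets 88 and 89 against 10.07 and 10.46 in 83 and 92. Lists of distal functions, taken without the members, were higher in 88 and 89 as well. The mean was 9.79 and 9.49 against 7.24 and 7.89 for ileal enterocyte function. For neonatal endocytic and lysosome-rich enterocytes it was 9.92 and 10.21 against 8.43 and 9.23. The split thus did not run to the proximal side alone. AMN and TFF2 were looked at after their values were seen. AMN, the partner of cubilin in uptake of the intrinsic factor and vitamin B12 complex, read 8.01 and 8.35 in 88 and 89 against 2.54 and 3.66 in 83 and 92, and TFF2, a trefoil peptide of mucous cells, read 5.86 and 3.62 against 9.03 and 7.86. The markers of intestinal epithelium had means of 12.84 and 12.56 in 88 and 89 against 13.24 and 13.41 in 83 and 92. The part of these genes in the segment comparisons of control piglets was not tested.

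**Figure D5:**
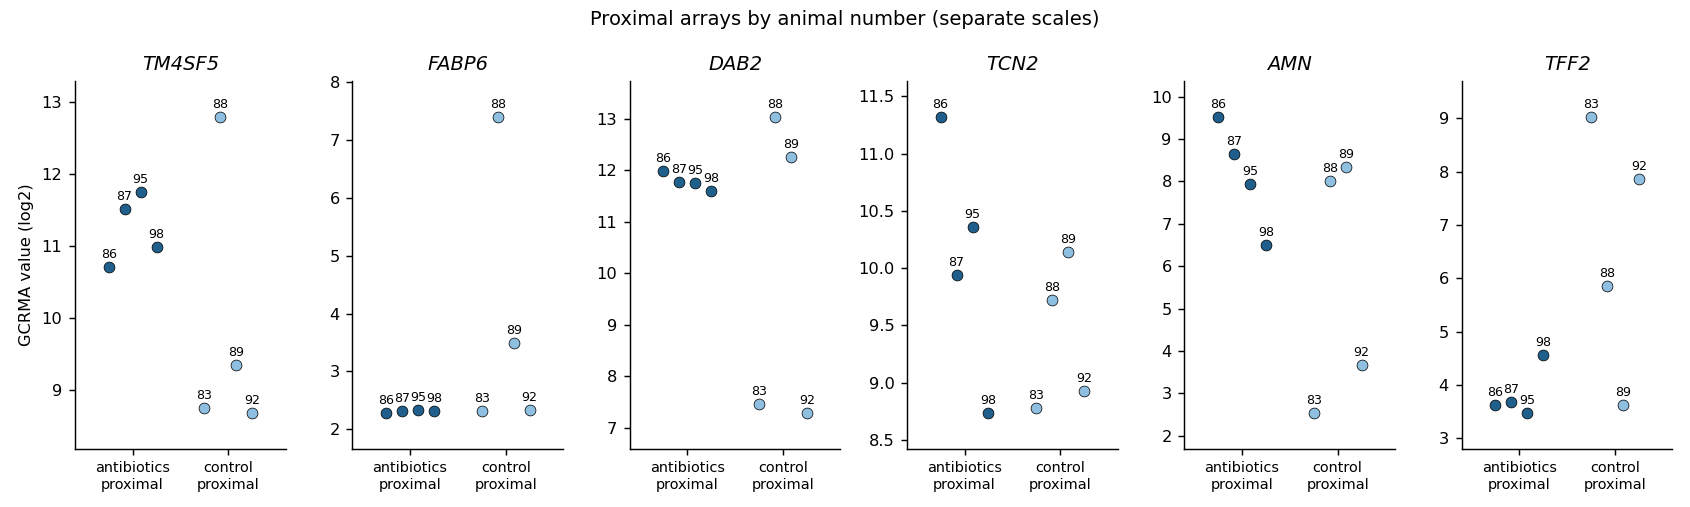
GCRMA values (log2, y axis, a scale of its own per gene) of the proximal arrays, numbered by animal, for TM4SF5, FABP6, DAB2, TCN2, AMN and TFF2. Among the control arrays 88 and 89 lie above 83 and 92 for the first 5 genes and below them for TFF2.

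Other genes of the same functions were read from lists, which were written with earlier results of these data known. Of all tested probe sets, 5.25% passed the segment test in antibiotics and 0.364% in control piglets, in either direction. Of 11 measured transcription factors of gut region and epithelium, GATA4 alone passed, in both treatments. Its relative GATA6, chosen after its values were seen, differed by 0.65 in antibiotics and 0.11 in control piglets (limma adjusted p = 0.383 and 0.991). Genes of proximal enterocyte function, 20 measured of 36, had 5 that fell and 0 that rose in distal tissue of antibiotics piglets, with a median of -0.79 against 0.05 over all tested probe sets. These included SLC2A5, the fructose transporter (-4.89, SE 0.77, limma adjusted p = 0.0015), APOA4, an apolipoprotein of chylomicrons (-3.01, SE 0.51, limma adjusted p = 0.00304) and SLC5A1, the sodium-glucose transporter (-3.46, SE 0.63, limma adjusted p = 0.00416). In control piglets 0 of the 20 passed, with a median of 0.06.

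Genes of neonatal endocytic and lysosome-rich enterocytes, 21 measured of 33, had 6 that rose and 0 that fell in distal tissue of antibiotics piglets. Of all tested probe sets 5.25% passed there in either direction. The list had a median of 1.35, against 0.05 over all tested probe sets, and a higher mean in distal tissue for 21 of 21. Among them NEU1 rose by 3.83 (SE 0.58, limma adjusted p = 0.00108) and SCPEP1, a lysosomal serine carboxypeptidase, by 3.12 (SE 0.56, limma adjusted p = 0.0039). In control piglets 0 of the 21 passed, where 0.364% of all tested probe sets did. The median was 1.41, against -0.01 over all tested probe sets, with a higher mean in distal tissue for 20 of 21. NEU1 was also the single list gene that passed as higher with antibiotics than in controls in distal tissue (2.31, SE 0.58, limma adjusted p = 0.0489). There 2.12% of all tested probe sets passed in either direction. The neonatal list had a higher mean with antibiotics in distal tissue for 19 of 21. Its median was 0.76, against 0.004 over all tested probe sets. Of 8 measured cathepsins, CTSV included, CTSH alone passed as higher in distal tissue of antibiotics piglets (2.15, SE 0.36, limma adjusted p = 0.00253). The mean was higher in distal tissue for 7 of 8 in antibiotics and 7 of 8 in control piglets, with medians of 0.66 and 0.59.

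Of 9 measured genes of ileal enterocyte function, FABP6 alone passed as higher in distal tissue of antibiotics piglets. ENPEP, glutamyl aminopeptidase of the brush border, alone passed in control piglets (1.96, SE 0.32, limma adjusted p = 0.0072). The mean was higher in distal tissue for 7 of 9 in antibiotics and 8 of 9 in control piglets. The list medians were 0.53 and 1.69, against 0.05 and -0.01 over all tested probe sets. The other fatty acid binding proteins did not share the pattern of FABP6, which alone passed among 7 measured. FABP2, the intestinal form, was chosen after its values were seen and differed by -0.99 and 0.06 (limma adjusted p = 0.095 and 0.995) in antibiotics and control piglets. Of 3 measured genes of bile acid handling, CYP27A1, which makes bile acids from cholesterol, fell in antibiotics piglets (-4.16, SE 0.78, limma adjusted p = 0.00497). Its distal mean there, 2.83 ± 0.49 (SD), lay near the floor, so the size of that fall is poorly determined. Of 7 measured genes of vitamin B12 uptake and carriage, TCN2 and AMN included, TCN1 (haptocorrin) fell in distal against proximal tissue of antibiotics piglets (-1.78, SE 0.44, limma adjusted p = 0.0272) and with antibiotics in distal tissue (-1.92, SE 0.44, limma adjusted p = 0.0333). None of 10 clathrin adaptors, DAB2 included, and none of 9 genes of the BTG/TOB and CCR4-NOT group, TOB1 included, passed a segment comparison. Of the L6 family TM4SF1 was the other measured member, chosen after its values were seen, and differed by -0.14 and -0.02 (limma adjusted p = 0.899 and 0.997).

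Single genes of the colon and endocrine cell lists also differed by segment. SLC26A3, a chloride exchanger of the ileum and colon, rose by 6.10 (SE 1.09, limma adjusted p = 0.00373) in distal tissue of antibiotics piglets. GCG, the proglucagon gene of L cells, rose by 4.51 in antibiotics and 4.19 in control piglets (limma adjusted p = 0.00199 and 0.0142). In control distal tissue GCG lay between 11.53 and 11.64, so piglets 83 and 88 did not stand apart by it. GATA4 cannot order these arrays, because its distal values lie at the floor.

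The genes whose values ran most like each member were found by Pearson correlation over the 16 arrays, which share the segment difference, and are given as a description. For GATA4 these were EPHX1 (0.907), NR2F6 (0.861) and AMCF-II (0.849), and for TM4SF5 TMPRSS15 (0.957), TMEM139 (0.916) and EPHX1 (0.914). For FABP6 they were SLPI (0.921), DEFB1 (0.853) and ASS1 (0.852), and for DAB2 SAT2 (0.961), WASHC1 (0.961) and RENBP (0.949). TMPRSS15 read 2.43, 3.25, 3.49 and 3.13 in distal tissue of antibiotics piglets 85, 86, 87 and 95, against 12.16, 11.94, 12.36 and 12.50 in proximal tissue of antibiotics piglets 86, 87, 95 and 98. In proximal tissue of control piglets 83, 88, 89 and 92 it read 6.60, 12.82, 8.60 and 8.45, with piglet 88 again far above the others. CTSV ran most like GTF2B (0.928), CLTA, a clathrin light chain (0.906), and SPPL3 (0.895). TCN2 ran most like SLC28A1, a nucleoside transporter (0.885), and TOB1 like FGGY (0.850).

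Over the 8 distal arrays alone other genes came closest, and these arrays share the difference between the 2 treatments, which for DAB2 did not overlap. DAB2 ran with KIAA0930 (0.982), AGA, a lysosomal amidase (0.981), and NVL (0.978). CTSV ran with CLTA (0.974), SIK3 (0.967) and TPP1, a lysosomal peptidase (0.962). FABP6 ran with BLOC1S5, a subunit of a complex that builds lysosome-related organelles (0.916), APH1A (0.896) and ECI2 (0.889). No correlation with GATA4 is read there, because its distal values lie at the floor.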

How the data were processed

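Total RNA of small intestinal tissue was hybridised to an Affymetrix porcine array, with 4 arrays in each of 4 groups formed from the labels. The submitters' processing notes name GCOS 1.2, GCRMA and limma. Their order and settings are not stated in the sources used here. The table the authors deposited holds a GCRMA value per probe set and array, on the log2 scale. These have their floor at 2.14, with 39.7% under 2.5, so values near the floor have no order and folds that reach down to it are poorly determined.

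Of the 24123 probe sets, 124 for controls did not enter, and the 11538 above log2 5 on at least 4 arrays were tested. By the platform annotation 10069 probe sets had 1 gene symbol, 198 several and 13732 none. Each gene is represented by its brightest probe set with a single symbol. The 4 group means were estimated in limma 3.58.1 (R 4.3.3, lmFit then eBayes) from the 16 arrays together. P values of the 11538 probe sets were adjusted by the Benjamini-Hochberg method, and 0.05 was the threshold. The fit was tested on simulated data. A fold written as "at least" sets the higher mean against log2 5, because no array of the lower group exceeded that level.

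The number in each sample name was read as the animal's. Across probe sets, the residuals of an animal's distal and proximal arrays correlated, in the 7 animals with both segments, at 0.0293 to 0.526, above 0.1 for 5 of them, and the blocked fits used statmod 1.5.0 (estimated correlation 0.172). The position of an array was its value between the mean of the proximal arrays, set to 0, and the mean of the distal arrays, set to 1, both taken without the arrays of its own animal. For the whole array the same was done by projecting 11529 tested probe sets, those of the members left out, on the distal minus proximal vector. Alternatives were other filters, normalizations, variance models, array weights, sets of arrays, animal blocks, a gene's value as the mean over its probe sets, and each array left out.

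The 7 genes and the gene lists were chosen with earlier results of these data known. The text names the 7 members, the 3 genes with the profile most like each of them over 16 and over 8 distal arrays, the list genes with the largest moderated t among those past the threshold (up to 4 a list in each segment comparison, all of them in the others), LEAP2 and NEU1, and leaves out some of these. Other genes are marked where they appear as chosen after their values were seen. Lesions, litters and scan dates were not used here. Python 3.11.15 with matplotlib 3.10.9 drew the figures.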

Additional observations from a re-analysis of the deposited data

Results flagged for a closer look

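There were 7 single values that stood apart from the other 3 arrays of their group by Dixon's test, out of 39 groups of 4 arrays tested over the member probe sets, of which chance alone would mark about 1 in 20. In control proximal tissue, TM4SF5 read 12.80 in piglet 88 against 8.68 to 9.34 in the others. In antibiotics distal tissue FABP6 read 7.97 in piglet 86 against 10.27 to 10.64, and TCN2 read 11.25 in piglet 85 against 9.96 to 10.15. In control distal tissue TOB1 read 9.99 in piglet 92 against 9.27 to 9.35, and the dimmest DAB2 probe set read 5.26 in piglet 89 against 3.89 to 3.97. The remaining 2 lay at or near the floor of the scale, where values have no order: GATA4 in antibiotics distal piglet 86, at 2.28 against 2.37 to 2.38, and the dimmer TM4SF5 probe set in control distal piglet 83, at 3.40 against 3.66.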

How the results depend on the processing

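The segment calls of GATA4 in both treatments and of TM4SF5 and FABP6 in antibiotics piglets held in every setting in which they were tested. GATA4 entered these fits through its proximal arrays alone, so for it this is no independent support. The TM4SF5 call in control piglets did not: its limma adjusted p was 0.202 without a filter, 0.315 with only the arrays compared, 0.0736 in animals with both segments alone, and 0.064 with the replicate block as a fixed effect. The second and the third of these use fewer arrays, and otherwise the cause was not tested. In control piglets 1 member passed in those 4 settings and at a filter of log2 7, where GATA4 was too dim to test. With the animal as a random replicate block FABP6 passed there too (limma adjusted p = 0.0264). Leaving out 1 array gave 3 to 3 members passing in antibiotics piglets, 1 to 3 in control piglets, 0 to 1 for the difference between treatments, 0 to 0 for treatment in distal and 0 to 1 in proximal tissue. For DAB2, 1 member passed for treatment in distal tissue with array weights and with only the arrays compared, and its segment difference in antibiotics piglets passed in the same settings (limma adjusted p = 0.0128 and 0.000353).

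The number of probe sets passing for the segment in antibiotics piglets was 606, 3008 with array weights, and 353 to 680 with an array left out. For control piglets it was 42, against 80 with array weights, 20 with only the arrays compared, 74 with the random replicate block and 25 to 77 with an array left out. For the difference between treatments it was 22, against 11 without a filter, 210 with array weights, 14 in animals with both segments alone, 39 and 9 with the random and fixed replicate block, and 10 to 44. For treatment in distal tissue it was 245, against 138 without a filter, 1665 with array weights, 430 with only the arrays compared, 159 with only animals with both segments, and 106 to 353. In proximal tissue it was 17, against 1 without a filter, 28 with equal array medians, 951 with array weights, 0 with only the arrays compared, 55 with only animals with both segments, and 2 to 556, the last without control proximal array 88.

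Sign changes were limited to differences that did not pass. The GATA4 difference between treatments was -0.051 after renewed quantile normalization, -0.047 with the random block, -0.17 with array weights, and -0.52 both under the fixed block and when only piglets with both segments entered. That of TOB1 was -0.0055 with equal medians, -0.55 with array weights and -0.035 under the same pair of settings, and that of DAB2 was -0.17 with array weights. The TCN2 segment difference in antibiotics piglets was -0.45 under that pair of settings too. In proximal tissue the treatment difference was 0.090 for CTSV with array weights and 0.33 for GATA4 with only animals with both segments. With an array left out, the difference between treatments ran -0.51 to 0.55 for GATA4, -0.43 to 1.49 for DAB2 and -0.21 to 0.19 for TOB1. The segment difference in antibiotics piglets ran -0.16 to 0.70 for TCN2 and -0.31 to 0.078 for TOB1, and for TOB1 in control piglets -0.27 to 0.099. The treatment difference of CTSV ran -0.081 to 0.29 in distal and -0.32 to 0.045 in proximal tissue, and that of GATA4 in proximal tissue -0.73 to 0.33. No other call of a member changed under a replicate block.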
